A study of Mus musculus with 4 samples.

Results

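The transcripts described here encode NF-kB transcription factors, the inhibitors that these factors induce against themselves, and inflammatory products that lie downstream of them or beside them, as measured in intestinal stem cells (ISCs) of young and old mice. They are 10 genes chosen by symbol, namely Nfkb1, Nfkb2, Rela, Relb, Nfkbia, Nfkbiz, Tnfaip3, Cxcl16, Il18 and Casp1, and all 10 are among the 52459 genes of the count table. The rule itself reads only the gene symbol. ISCs came from the small intestine of wild-type (WT) C57/Bl6 mice, which the study's methods describe as female, aged 2 months (ISC_2mth, young) or 22 months (ISC_22mth, old). Each of the 4 libraries, 2 per age, was made from a pool of 5 animals, so that differences between single animals cannot be seen, and no mouse carried a transgene or received a treatment in this comparison. Crypt cells were sorted by surface proteins as EPCAM+, CD166+, CD44-high and EPHB2-high cells of medium CD24 and low GRP78, without the leukocyte protein CD45 and the endothelial protein CD31. Their RNA was amplified along whole transcripts (SPIA), and single-end reads were counted per gene.

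NF-kB is a dimer of Rel-family proteins that waits in the cytoplasm until inflammatory or microbial signals set it free. In the canonical branch a kinase complex (IKK) marks the inhibitor IkB-alpha, the product of Nfkbia, for destruction, and dimers of the Nfkb1 and Rela products enter the nucleus. In the non-canonical branch the precursor encoded by Nfkb2 is processed and pairs with RELB. Among the genes switched on are Nfkbia and Tnfaip3 themselves, which shut the signal off again. In the intestinal epithelium the pathway links the sensing of microbes to cell survival and to the release of chemokines and cytokines, and CASP1, the protease of the inflammasome, cuts the IL-18 precursor into its secreted form.

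Promoters are printed for genes on which the results turn, to show the letters to which NF-kB is known to bind beside the values. RefSeq promoter windows of GRCm38.p6, from 250 bases before to 50 bases after a transcript start, were matched by symbol for 6 of the 10 members, and Nfkb1, Relb, Nfkbiz and Cxcl16 had no entry. A short form of the kB motif, spelled GGG, then any 2 bases, then TTTCC, was searched on both strands and is in capitals, and where the match is on the other strand the capitals show its reverse complement. The motif was picked with these windows in view. The feedback genes Nfkbia and Tnfaip3 and the precursor gene Nfkb2 are shown because each held a match, Casp1 because it was the member that passed the test between ages, and Casp4 because it is its neighbour and moved in the same direction.
Nfkbia, chr12:55492598-55492897, minus strand: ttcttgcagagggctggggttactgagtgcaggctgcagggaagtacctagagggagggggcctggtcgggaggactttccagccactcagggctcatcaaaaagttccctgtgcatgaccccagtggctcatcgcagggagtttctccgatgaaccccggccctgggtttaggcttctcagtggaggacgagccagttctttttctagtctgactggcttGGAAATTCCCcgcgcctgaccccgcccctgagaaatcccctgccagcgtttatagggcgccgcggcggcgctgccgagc
Tnfaip3, chr10:19015361-19015660, minus strand: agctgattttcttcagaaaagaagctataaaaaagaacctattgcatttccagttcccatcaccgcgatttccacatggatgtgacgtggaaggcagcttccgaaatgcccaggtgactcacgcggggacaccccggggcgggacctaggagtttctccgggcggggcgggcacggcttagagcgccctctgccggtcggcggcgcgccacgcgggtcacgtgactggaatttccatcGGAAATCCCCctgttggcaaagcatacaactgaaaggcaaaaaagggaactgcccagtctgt
Nfkb2, chr19:46304487-46304786, plus strand: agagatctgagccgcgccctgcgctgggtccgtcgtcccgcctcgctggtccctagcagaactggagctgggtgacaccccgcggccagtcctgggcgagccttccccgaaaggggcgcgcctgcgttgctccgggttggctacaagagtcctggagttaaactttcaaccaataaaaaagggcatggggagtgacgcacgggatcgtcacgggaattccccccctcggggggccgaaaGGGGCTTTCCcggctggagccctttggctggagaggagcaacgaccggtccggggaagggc
Casp1, chr9:5298267-5298566, plus strand: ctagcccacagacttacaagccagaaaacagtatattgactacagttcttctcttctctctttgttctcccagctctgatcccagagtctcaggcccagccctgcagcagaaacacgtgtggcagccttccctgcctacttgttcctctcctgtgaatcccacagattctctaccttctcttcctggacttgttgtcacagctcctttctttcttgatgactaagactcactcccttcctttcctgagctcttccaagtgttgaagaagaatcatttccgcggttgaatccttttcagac
Casp4, chr9:5308599-5308898, plus strand: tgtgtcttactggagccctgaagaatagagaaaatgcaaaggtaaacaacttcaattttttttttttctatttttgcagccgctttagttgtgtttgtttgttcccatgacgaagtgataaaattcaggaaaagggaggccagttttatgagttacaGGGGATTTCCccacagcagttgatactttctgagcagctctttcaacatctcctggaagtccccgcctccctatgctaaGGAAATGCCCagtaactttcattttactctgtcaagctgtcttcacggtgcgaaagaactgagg
The match of Nfkbia began 29 bases before the start, that of Tnfaip3 12 bases before it and that of Nfkb2 11 bases before it. The 6 members have 9 windows in all, and for each gene printed the first is shown. A second window of Tnfaip3 held no match, and 2 further windows of Nfkb2, which overlap, shared 1 match. Casp4 had matches 93 and 14 bases before its start, whereas the windows of Casp1, Il18 and Rela held none. Among the other pathway genes called below, Tlr3 had 1 match and Aim2, P2rx7 and Ccl28 had none. Of all 32851 windows searched, 1.63% held these letters, as did a window of 1.89% of the 27025 genes. The wider kB consensus, which overlaps the spelled motif, was found in the same 3 of 6 members, in 4.51% of all windows and in 5.14% of all genes. A match is a string of letters and not a measured site, and a window without one says nothing of NF-kB binding elsewhere.

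Depth was between 11662654 and 15975698 counts per library. Mitochondrially encoded genes took between 62.6% and 65.7% of the counts in young and between 72.9% and 73.8% in old ISCs, which left between 3852178 and 4593004 counts on all other genes. After TMM normalization a floor of 3 counts stood at 0.199 to 0.246 normalized CPM (counts on the usual CPM scale, relative to the effective library size). The crypt stem cell markers, such as Lgr5, Ascl2 and Olfm4, were all among the genes tested. Their summed level was between 2525 and 2648 normalized CPM in young and between 2304 and 2589 in old ISCs. Olfm4 alone gave 1302 and 1230 in young and 1111 and 1289 in old ISCs, so the sum says little of the rest. In edgeR's test 0 of the 10 passed at FDR 0.05, with unadjusted p under 0.05 for 4 of them and the lowest FDR, 0.051, for Axin2. Of these 4, Axin2, Ephb2 and Sox9 were lower in old ISCs (log2 fold changes of -0.46, -0.52 and -0.28). Ascl2 was higher (0.33). With 2 pools against 2, an exact permutation test of 1 gene has 0.333 as its smallest p, so all tests are from edgeR's quasi-likelihood fit over all genes. In bulk RNA, fewer cells of a kind and less RNA per cell cannot be told apart.

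Levels differed widely among the 10 genes. Per kilobase of exon, Casp1 stood first with a mean over the 4 libraries of 36.2 normalized CPM per kb, above 98.3% of the 11184 protein-coding genes tested. Nfkbia (5.48 CPM per kb) and Nfkbiz (4.79) came next and their ranges over libraries overlapped. Rela (2.79) and Nfkb1 (2.22) followed and also overlapped, as did Relb (1.36) and Il18 (1.32). Tnfaip3 (0.565), Nfkb2 (0.321) and Cxcl16 (0.269) were lowest, and each overlapped its neighbour in this order. Exonic length was summed over all isoforms of each gene, so every level per length is a low estimate, to an unequal degree. Nfkb1, for one, has 12061 bp in the annotation.

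Between ages, Casp1 rose in old ISCs and no other member passed the test. Of the 10 genes, 9 passed the filter on low counts, and Cxcl16 did not. At a false discovery rate (FDR) under 0.05, 1 of these 9 was called, beside 2.26% of the 13692 genes tested, 1.63% being higher and 0.628% lower in old ISCs. Log2 fold changes (old minus young) were above 0 for 5 members and below 0 for 4, with a median of 0.16, beside a median of -0.0049 over all genes tested. Without overlap between ages, old ISCs were the higher for 3 of the 9 (24.0% of all genes tested) and the lower for 2 of the 9 (23.6% of all genes tested). Unadjusted p was under 0.05 for 2 of the 9, Casp1 and Nfkbia, beside 16.9% of all genes tested. Scaling by total counts without TMM shifted the median of all genes by -0.49 on the log2 scale. Casp1 is therefore also given below relative to the median of all genes under that scaling.

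**Figure D1:**
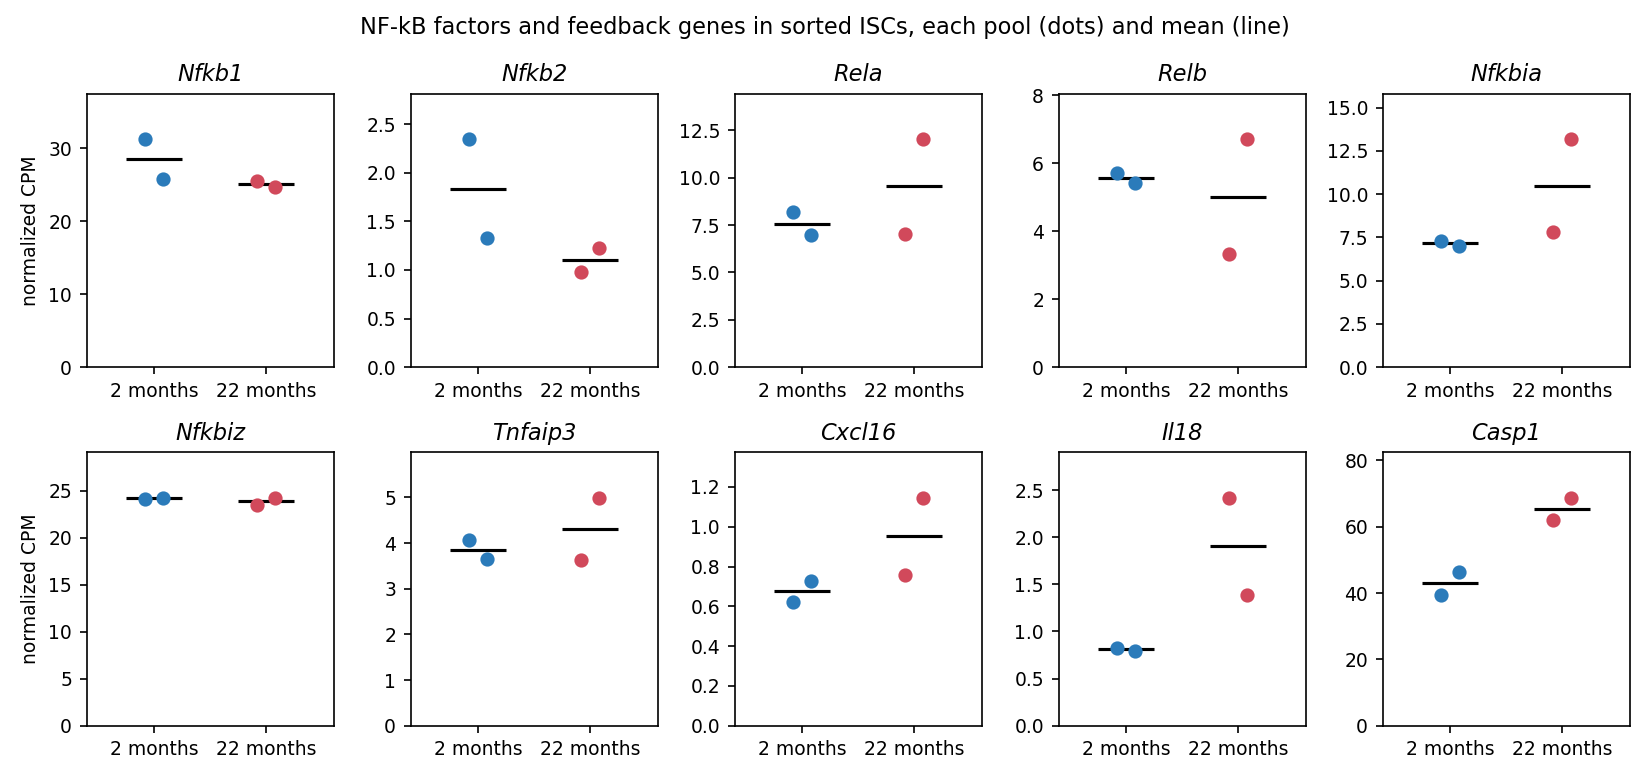
Normalized CPM (vertical axes, each from 0) of the 10 members in the 2 young and 2 old pools, with 1 dot per pool and a line at the mean of each age. Casp1 stood at 39.3 and 46.5 in young and at 62.0 and 68.8 in old ISCs, whereas the dots of Nfkbiz lay between 23.5 and 24.3 in all pools.

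Among the DNA-binding subunits, none passed the test, and values of both signs had intervals that span 0. Nfkb1 encodes the precursor of the canonical partner of RELA and lies on chromosome 3 from 135584655 to 135691547 of GRCm38. Its counts were 453 and 390 in young and 338 and 301 in old ISCs, or 31.3, 25.8, 25.6 and 24.7 normalized CPM. Old ISCs were lower without overlap, but the nearest young and old pools nearly touched. For Nfkb1 the log2 fold change was -0.18 (standard error 0.15, 95% interval -0.50 to 0.14, FDR = 0.58). It was -0.04 without ISC_2mth replicate 1 and -0.32 without ISC_2mth replicate 2. Rela, the main activating subunit, lies on chromosome 19 from 5637483 to 5648130 and had 8.21 and 6.96 normalized CPM in young and 7.04 and 12.0 in old ISCs. The ages overlapped, because the value of ISC_22mth replicate 2 was high while that of replicate 1 lay among the young pools. Its log2 fold change was 0.33 (95% interval -0.21 to 0.86, FDR = 0.55), and -0.11 without ISC_22mth replicate 2.

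The non-canonical pair was lower in level. Nfkb2, on chromosome 19 from 46304320 to 46312385, gave only 34 and 20 counts in young and 13 and 15 in old ISCs, or 2.35, 1.33, 0.984 and 1.23 normalized CPM. The ages did not overlap, old ISCs being the lower. Its log2 fold change was -0.73, with an interval from -1.91 to 0.45 that spans 0 (FDR = 0.55). The size turned on the young pools, being -0.26 without ISC_2mth replicate 1 and -1.09 without ISC_2mth replicate 2. Exons of Nfkb2 overlap those of Psd over 299 bp and of AC114539.1 over 531 bp on the opposite strand, and the strand setting of the counting is not given in the sources used here, so part of its few counts is uncertain. Relb, the partner of processed NFKB2, lies on chromosome 7 from 19606217 to 19629438 and stood at 5.73 and 5.43 normalized CPM in young and at 3.33 and 6.72 in old ISCs. The old pools fell on either side of the young ones. The log2 fold change of Relb was -0.16 (95% interval -0.81 to 0.49, FDR = 0.84), and it turned to 0.27 without ISC_22mth replicate 1.

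Of the feedback genes, Nfkbia was nearest to a difference, Nfkbiz was at almost the same level in every pool and Tnfaip3 overlapped between ages. Nfkbia, which encodes IkB-alpha, lies on chromosome 12 from 55489410 to 55492647, and the kB letters printed above stand just before its start. Its counts were 106 and 106 in young and 103 and 161 in old ISCs, or 7.31, 7.02, 7.79 and 13.2 normalized CPM. The ages did not overlap, but ISC_22mth replicate 1 was close to the young pools and the distance rested on replicate 2. For Nfkbia the log2 fold change was 0.54 (standard error 0.25, 95% interval 0.02 to 1.07), with an unadjusted p of 0.041 and an FDR of 0.27 by edgeR's quasi-likelihood test. Without ISC_22mth replicate 1 it was 0.88 (FDR = 0.025 in the edgeR fit, with the lone old pool assumed to vary like the young pools), and without replicate 2 it was 0.12. Within each library, the count of Nfkbia over that of its binding partner Rela was 0.891 and 1.01 in young and 1.11 and 1.09 in old ISCs, a ratio that no scaling of libraries can move. The high Nfkbia and Rela values thus came from the same old pool.

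Nfkbiz, an atypical nuclear IkB that supports part of the secondary response, lies on chromosome 16 from 55811375 to 55838899. It had 24.1 and 24.3 normalized CPM in young and 23.5 and 24.2 in old ISCs, and the ages overlapped. For this gene the log2 fold change was -0.02, with a 95% interval from -0.34 to 0.30 (FDR = 0.96). Tnfaip3, which encodes the ubiquitin-editing enzyme that ends signalling from TNF receptors, lies on chromosome 10 from 19000910 to 19015657. Values of Tnfaip3 were 4.07 and 3.64 normalized CPM in young and 3.63 and 5.00 in old ISCs, so that the ages overlapped, with the highest value again in ISC_22mth replicate 2. Its log2 fold change was 0.16 (95% interval -0.49 to 0.81, FDR = 0.85). Neither gene overlaps the exons of another.

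**Figure D2:**
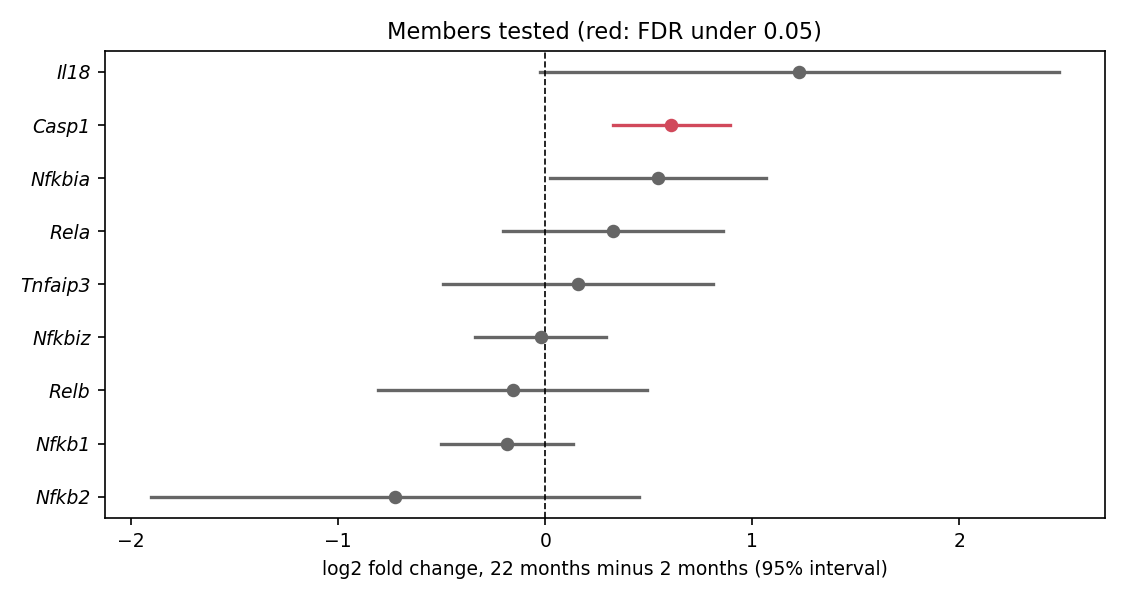
Log2 fold change (horizontal axis, 22 months minus 2 months) of the 9 members tested, as points with 95% intervals from edgeR's quasi-likelihood fit, red where FDR was under 0.05. The interval of Casp1, from 0.33 to 0.89, lay above 0, and that of Nfkbiz, from -0.34 to 0.30, was centred near 0.

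Cxcl16 and Il18, the secreted products among the members, were near the lower limit of these libraries. Cxcl16 encodes a transmembrane chemokine that is shed from epithelial cells and lies on chromosome 11 from 70453983 to 70459984. It had 9 and 11 counts in young and 10 and 14 in old ISCs, or 0.621, 0.729, 0.757 and 1.15 normalized CPM. Without a filter its log2 fold change was 0.48, with a 95% interval from -0.90 to 1.86 (FDR = 0.80 over 24764 genes), so that no difference was detectable at this depth. Its exons overlap those of Zmynd15 on the opposite strand over 552 bp. Il18, on chromosome 9 from 50554827 to 50581840, encodes the cytokine that CASP1 activates. Counts of Il18 were 12 and 12 in young and 32 and 17 in old ISCs, or 0.828, 0.795, 2.42 and 1.39 normalized CPM. Old ISCs were higher without overlap, and the old pools differed from each other more than the lower of them differed from the young. For Il18 the log2 fold change was 1.23 (standard error 0.60, 95% interval -0.03 to 2.48, unadjusted p = 0.055 and FDR = 0.31 in the edgeR fit), and 0.77 without ISC_22mth replicate 1. That library also held the most RNA of Paneth cell markers, whose sum over 10 genes was 2438 normalized CPM there and between 843 and 1075 in the other pools. Of these 10 markers 3 defensin genes, which have close copies, were called higher in old ISCs, none was at 0 in all libraries, and their part in the values of Il18 was not tested.

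Casp1, the protease that the inflammasome activates, had the highest count and the highest level per kb of the 10 genes in every library, and it rose in old ISCs. The gene lies on chromosome 9 from 5298517 to 5307265, with no other gene over its exons and none of its 50-base stretches in transcripts of other genes. Counts were 570 and 701 in young and 819 and 840 in old ISCs, or 39.3, 46.5, 62.0 and 68.8 normalized CPM. The lowest old pool stood well above the highest young pool. Means were 42.9 ± 5.04 normalized CPM in young and 65.4 ± 4.82 in old ISCs (SD, n = 2 each). This is a log2 fold change of 0.61 (standard error 0.13, 95% interval 0.33 to 0.89, FDR = 0.022 by edgeR's quasi-likelihood test), a fold of 1.52 with an interval from 1.25 to 1.85. Across 17 alternatives it was above 0 in each and had FDR under 0.05 in 14. It was 0.39 with offsets for GC content and length (FDR = 0.18) and 0.49 without ISC_2mth replicate 1 (FDR = 0.27), and with total counts it was 0.12 (FDR = 0.53), which is 0.62 above the median of all genes under that scaling.

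Set against the sum of the members in the same library, Casp1 also stood higher in old ISCs. It took 31.8% and 37.9% of the counts of the 10 genes in young ISCs, with 95% Wilson intervals of 29.6 to 33.9% and 35.8 to 40.2%. In old ISCs it took 45.3% (43.0 to 47.5%) and 43.4% (41.2 to 45.6%). These intervals cover at most the counting error of reads and not differences between pools. Reads were not marked by molecule, so the intervals are too narrow where copies of 1 molecule count more than once. The count of Casp1 was 1.63 and 1.92 times that of Nfkbiz in young and 2.64 and 2.84 times in old ISCs. Relative to Nfkb1 it was 1.26 and 1.80 in young and 2.42 and 2.79 in old ISCs. Of its 9 ratios to single members, 5 were higher in old ISCs without overlap (those to Nfkb1, Nfkb2, Relb, Nfkbiz and Tnfaip3) and 4 overlapped. Relative to Nfkbia the count of Casp1 was 5.38 and 6.61 in young and 7.95 and 5.22 in old ISCs, and relative to Rela 4.79 and 6.68 in young and 8.81 and 5.71 in old ISCs, so that neither ratio separated the ages. The ratios to Cxcl16 and Il18, which rest on few counts, overlapped too. Such ratios do not tell which of the genes moved.

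**Figure D3:**
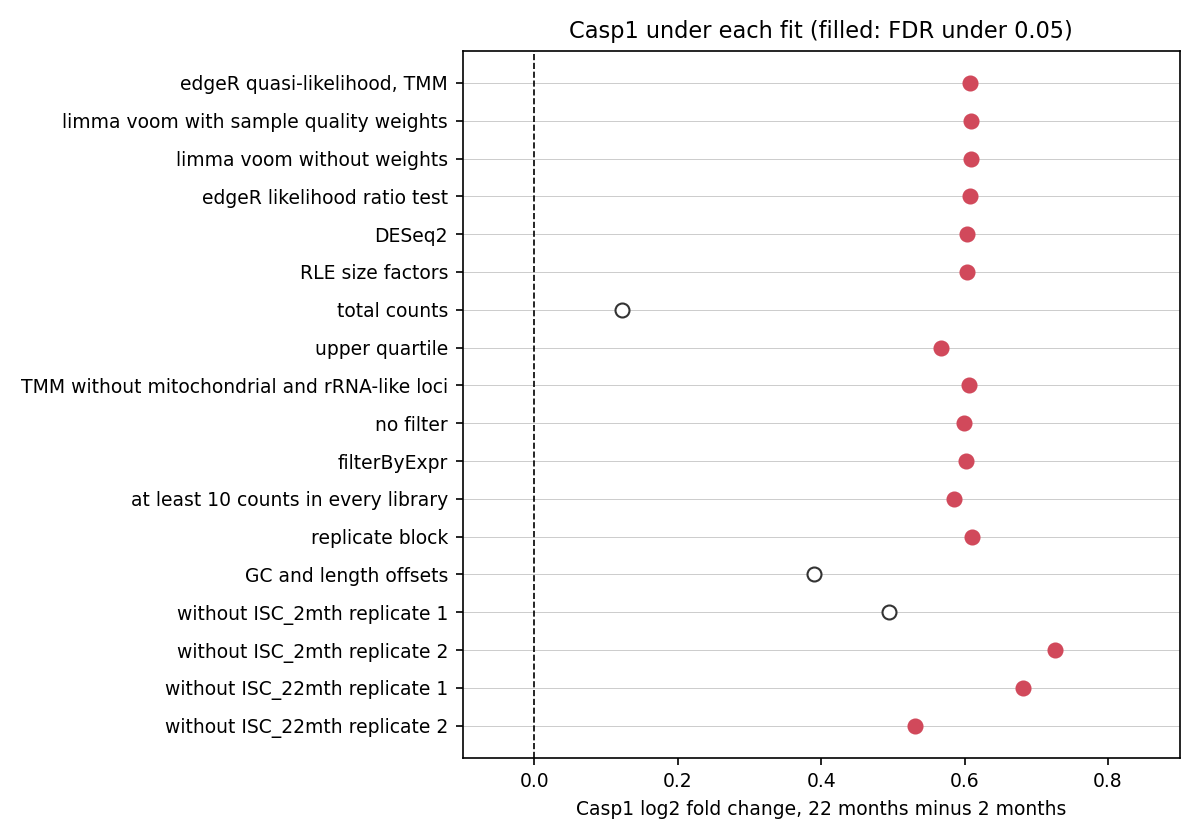
Log2 fold change of Casp1 (horizontal axis, 22 months minus 2 months) under the fit reported and 17 alternatives, with filled points where FDR was under 0.05. All points lay above 0, from 0.12 with total counts to 0.73 without ISC_2mth replicate 2.

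Markers of other cells moved with age beside Casp1. The enterocyte list, all of whose 10 genes were tested and none was at 0, summed to 706 and 826 normalized CPM in young and to 1349 and 1243 in old ISCs, and 5 of the 10 (Apob, Fabp1, Fabp2, Sis and Rbp2) were called higher. The 24 leukocyte markers summed to 12.0 and 15.0 normalized CPM in young and to 23.6 and 23.3 in old ISCs. Only Itgam and Ccr2 among them passed the filter and both were called higher, with Itgam giving 148 and 196 of the list's 174 and 226 counts in young and 254 and 252 of its 312 and 284 in old ISCs. The sum was thus mostly Itgam, and the rarer markers went both ways. Ccr2 had 0 counts in both young pools and 13 and 16 in old ISCs, and Gzma 0 in both young pools and 6 and 1 in old ISCs, while Coro1a had 7 and 4 in young and 1 and 0 in old ISCs. The gene of CD45, Ptprc, had 0 counts in 3 libraries and 2 in ISC_22mth replicate 1, and 8 markers, among them Itgax, Cd3g, Cd4, Cd79a, Adgre1, Mzb1 and Tyrobp, were at 0 in every library. Markers of endothelium and stroma, 5 of 10 of which were at 0, summed to 0.276 and 0.199 normalized CPM in young and to 0.832 and 0.983 in old ISCs, at most 12 counts per library. The part of RNA from these other cells in the Casp1 values was not tested. Other lists moved less evenly. Tuft cell markers summed to between 3.10 and 5.04 in young and between 5.81 and 9.01 normalized CPM in old ISCs, with Dclk1 called higher among 3 tested. Much of this difference was Dclk1, with 4 and 4 counts in young and 42 and 19 in old ISCs. The other tested tuft genes overlapped between ages, Trpm5 with a log2 fold change of 0.94 and Pou2f3 with -0.21. The summed levels of goblet and of enteroendocrine markers overlapped between ages, and no gene of either list was called.

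Around the members, 7 lists of pathway genes held 170 distinct genes, of which 112 were tested. Of these, 5 were called (4.46%, beside 2.26% of all genes tested), and all 5 were higher in old ISCs. They were Tlr3, Ccl28, P2rx7, Aim2 and Casp4, of which DESeq2 called Ccl28 and Aim2. The lists were chosen with earlier results of these data known, so this share is no test of enrichment. The study's own list of genes that differ with age (FDR under 0.05), from the same pools, holds Casp1 and all 5. It also holds Tax1bp1, Sod2 and Naip1, which were not called in the fit used here. In the lists below in which edgeR called 0 genes, DESeq2 called 0 too. The rest of the Rel and IkB family gave 0 called of 4 and 0 with an unadjusted p under 0.05, and its median log2 fold change was -0.01. Its member Rel, the subunit best known from lymphocytes, had 6.35 and 8.75 normalized CPM in young and 8.25 and 8.35 in old ISCs (log2 fold change 0.14, FDR = 0.82), while Bcl3 was at -0.34, Nfkbib at -0.15 and Nfkbid at 0.22. The IKK complex with its upstream kinases and ligases gave 0 called of 31 tested, with a median of 0.08. Of these, 3 had an unadjusted p under 0.05 in edgeR's test, beside 16.9% of all genes tested. Irak1, the gene of an IL-1 receptor kinase, was at 0.39 there (FDR = 0.19), the ubiquitin ligase gene Traf6 at 0.33 and Rnf31 at -0.33. Over the fits without 1 pool, Rnf31 ran from -0.76 without ISC_22mth replicate 1 to -0.012. Its counts were 261 and 251 in young and 227 and 125 in old ISCs, so its value rested on ISC_22mth replicate 2.

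Receptors and adaptors gave 1 called of 20 tested, with a median of -0.04. Tlr3, the receptor for double-stranded RNA, rose from 23.4 and 20.2 to 33.7 and 33.5 normalized CPM, a log2 fold change of 0.63 (95% interval 0.31 to 0.94, FDR = 0.031). It lost the call in 5 of 17 alternatives, among them each fit without a young pool, where FDR was 0.055 without ISC_2mth replicate 1 and 0.20 without replicate 2. Tlr1 was at 0.98 (FDR = 0.091) and was called without ISC_22mth replicate 1 (1.22, FDR = 0.014), although 15.4% of its 50-base stretches occur in transcripts of other genes, mostly of Tlr6. Ltbr, the receptor that drives the non-canonical branch, was at -0.37 (FDR = 0.36) and Tnfrsf1b at -0.55 (FDR = 0.40). The receptor of IL-18 was almost unread, with between 1 and 3 counts of Il18r1 in each library and 1 count of Il18rap in all. These last genes were picked out after their values were seen. Neither allows a comparison at this depth.

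Negative regulators outside the members gave 0 called of 21 tested, with a median of -0.06. Of these, 3 had an unadjusted p under 0.05 in edgeR's test, beside 16.9% of all genes tested. The ribonuclease gene Zc3h12a was at -0.92 (FDR = 0.22), and without 1 pool at a time it ran from -1.58 without ISC_22mth replicate 2 to -0.28 without ISC_2mth replicate 1. Without ISC_22mth replicate 2 (FDR = 0.0020) and without ISC_2mth replicate 2 (-1.36, FDR = 0.020) it was called lower. Pdlim2 was at -2.04 (FDR = 0.27), and from -3.67 without ISC_22mth replicate 1 to -1.32 without ISC_22mth replicate 2. Tax1bp1, which encodes a cofactor of the TNFAIP3 enzyme, was at 0.29 (FDR = 0.20) and Nlrc5 at 1.84 (FDR = 0.31). Nlrc5 had 27 counts in ISC_22mth replicate 1 and between 4 and 6 in the other libraries, so its value rests on that pool, and it was 0.27 without it. Of 41 textbook NF-kB targets only 9 passed the filter and 11 were at 0 in every library. Il6, Cxcl2, Cxcl10 and Ptgs2, named after their values were seen, were among those at 0. Of the 9 tested, Ccl28 was called, beside 2.26% of all genes tested, and the list median was 0.06. In edgeR's test 5 of the 9 had an unadjusted p under 0.05, beside 16.9% of all genes tested. Pigr (0.42) and Myc (0.24), higher in old ISCs, were among the 5. Ccl28, a mucosal chemokine of epithelial cells, rose from 48.3 and 50.7 to 70.0 and 84.4 normalized CPM, a log2 fold change of 0.64 (95% interval 0.36 to 0.92, FDR = 0.014). It kept the call in 14 of 17 alternatives and lost it without ISC_2mth replicate 1 (FDR = 0.081), with total counts and with offsets for GC content and length. Sod2, the mitochondrial superoxide dismutase gene, was at 0.52 (FDR = 0.075) and was called without ISC_22mth replicate 2 (0.61, FDR = 0.017), with Cx3cl1 at -0.90 (FDR = 0.25) and Cflar at -0.26 (FDR = 0.40). For Cxcl16, its receptor gene Cxcr6 did not pass the filter, and the sheddase genes Adam10 and Adam17 were at 0.02 and 0.06, with 95% intervals of -0.28 to 0.31 and -0.31 to 0.43.

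**Figure D4:**
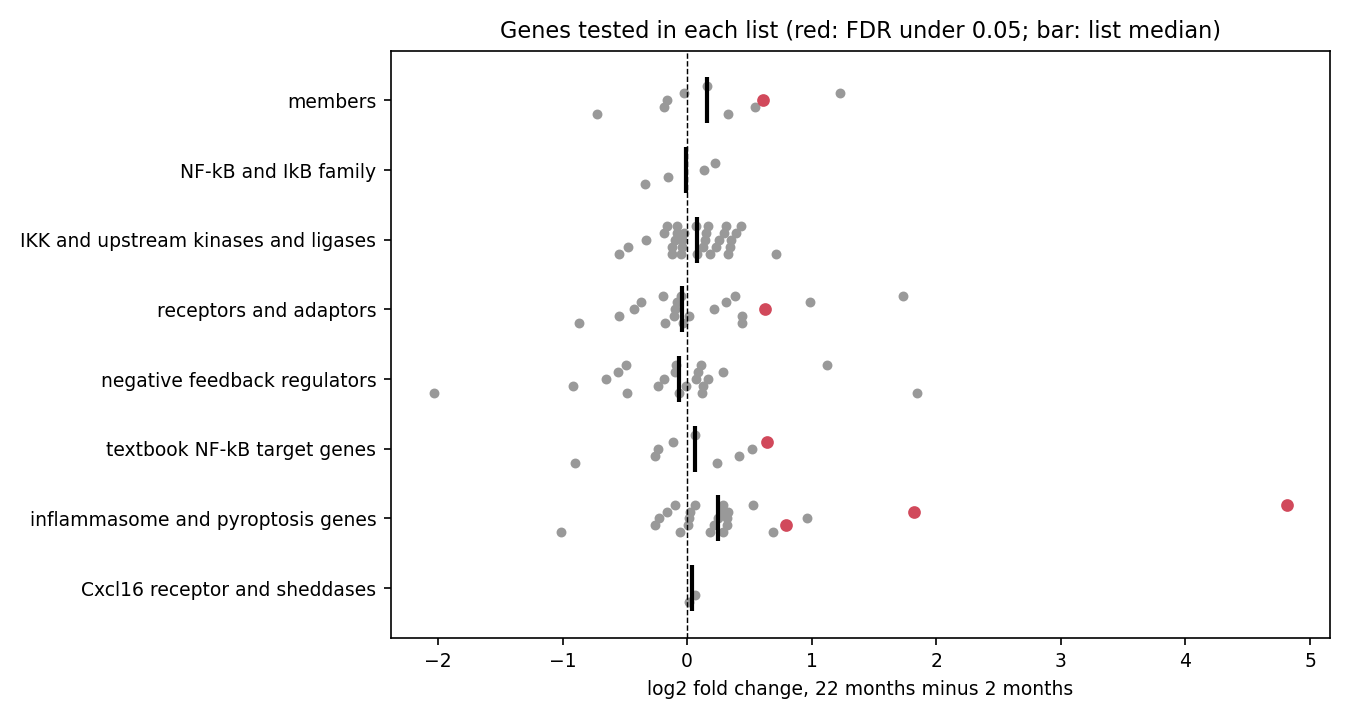
Log2 fold changes (horizontal axis, 22 months minus 2 months) of the genes tested among the members and in the 7 pathway lists, 1 dot per gene, red where FDR was under 0.05, with a bar at each median. The medians lay between -0.06 and 0.25, the highest being that of the inflammasome and pyroptosis genes.

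The inflammasome and pyroptosis genes, which act with CASP1, held 3 of the 5 calls. Of 32 genes listed 31 were matched and 25 were tested, of which 3 rose and 0 fell, and the median log2 fold change was 0.25, beside -0.0049 over all genes tested. Without overlap between ages, old ISCs were the higher for 11 of the 25 (24.0% of all genes tested) and the lower for 1 (23.6% of all genes tested). This list too was chosen with earlier results known, so these shares describe it and test nothing. Aim2, a sensor of cytosolic DNA, rose from 23 and 39 counts to 109 and 80, or from 1.59 and 2.58 to 8.25 and 6.55 normalized CPM. Its log2 fold change was 1.82 (95% interval 1.15 to 2.49, FDR = 0.0046), and FDR was under 0.05 in all 17 alternatives. P2rx7, a channel opened by extracellular ATP that triggers the NLRP3 inflammasome, had 0 and 6 counts in young and 77 and 74 in old ISCs. The fitted log2 fold change was 4.82 (95% interval 3.56 to 6.07, FDR = 9.4e-05). Its size turned on the young pools, being 3.87 without ISC_2mth replicate 1. Without ISC_2mth replicate 2 the young group was at 0, and the fitted 9.31 then depends on the prior count and is no bound. DESeq2 did not call P2rx7 (FDR = 0.11).

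Casp4, the sensor of cytosolic bacterial lipopolysaccharide, starts 1562 bases after the end of Casp1 on the same strand. It rose from 9.11 and 10.1 to 15.4 and 17.9 normalized CPM, a log2 fold change of 0.79 (95% interval 0.39 to 1.19, FDR = 0.034). The call was lost in 6 of 17 alternatives, among them the fits without either young pool (FDR = 0.23 without replicate 1 and 0.059 without replicate 2) and without ISC_22mth replicate 2 (FDR = 0.066). In each library the count of Casp4 was between 21.8% and 26.1% of that of Casp1. The exons of the 2 genes do not overlap.

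Other partners of CASP1 did not pass the test on all 4 pools. Pycard, the adaptor between sensors and CASP1, was high in every pool, at 103 and 116 normalized CPM in young and 121 and 154 in old ISCs (log2 fold change 0.33, 95% interval 0.05 to 0.60, FDR = 0.21), and it overlaps Gm45205 on the opposite strand. It was at 0.49 without ISC_22mth replicate 1, where it was called (FDR = 0.0080), and at 0.14 without ISC_22mth replicate 2. Nlrp6, a sensor known from intestinal epithelium, stood at 118 and 109 in young and 87.0 and 116 normalized CPM in old ISCs (-0.16, FDR = 0.58). Nlrc4, the sensor platform for flagellin, was at 0.02 (95% interval -0.33 to 0.37) and its partner Naip5 at 0.06, although 36.9% of the 50-base stretches of Naip5 also occur in transcripts of other genes, mostly of Naip1. Of its paralogs, named after their values were seen, Naip1 was at 0.53 (95% interval 0.20 to 0.85, FDR = 0.087) with higher values in old ISCs without overlap, Naip2 at 0.29 (FDR = 0.43) and Naip6 at 0.0057 (FDR = 0.99). These paralogs also share 50-base stretches with transcripts of other genes, 31.5% of those of Naip1, 19.1% of Naip2 and 21.5% of Naip6. The pore-forming substrate Gsdmd was at -0.10 (95% interval -0.72 to 0.52), the IL-18 decoy Il18bp at 0.18 and Nlrp9b at -1.01, with 13 and 13 counts in young and 7 and 4 in old ISCs. Nlrp3 was at 0 in every library and Il1b had between 1 and 5 counts, both picked out after their values were seen.

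**Figure D5:**
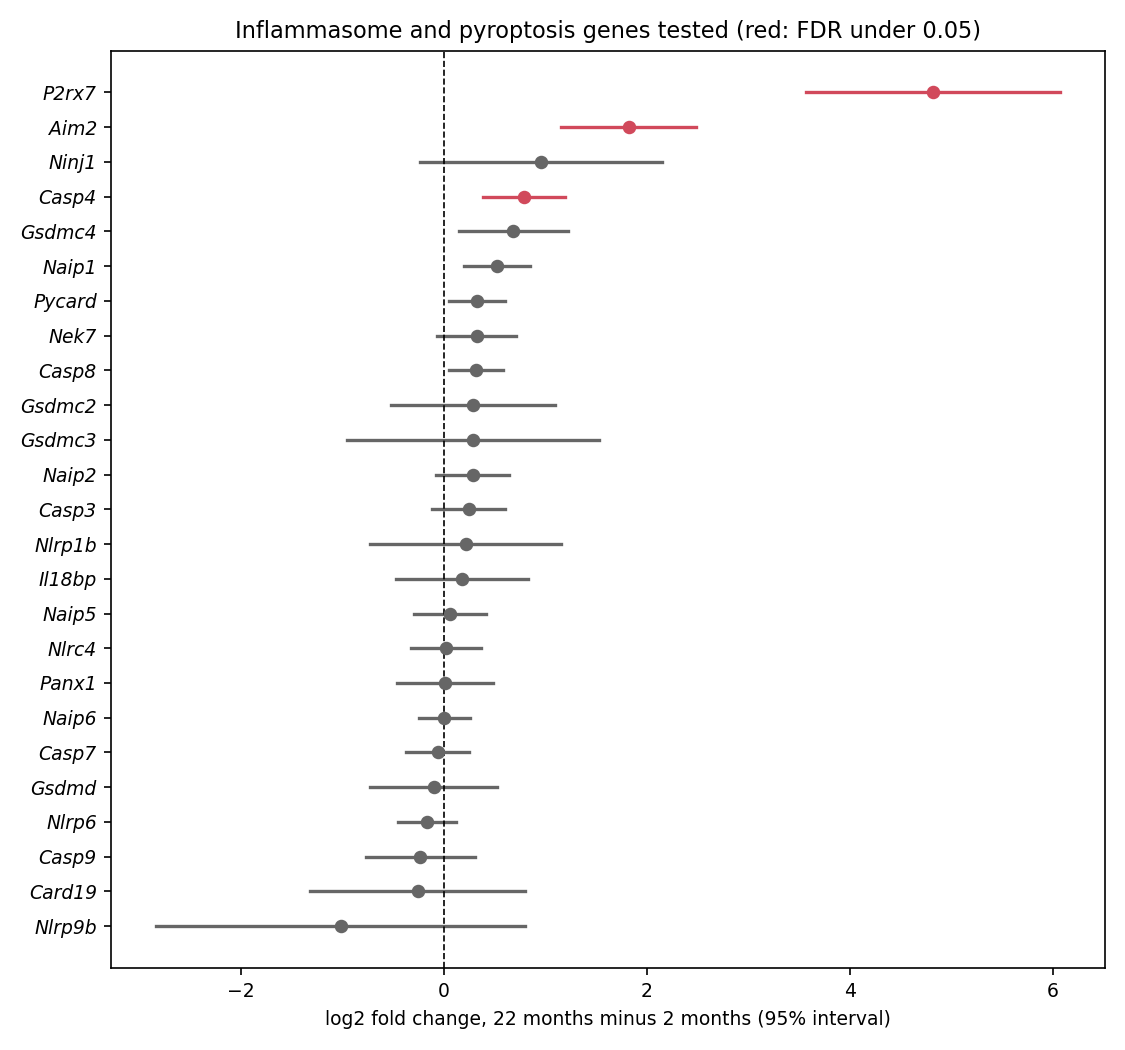
Log2 fold change (horizontal axis, 22 months minus 2 months) of the 25 inflammasome and pyroptosis genes tested, as points with 95% intervals from edgeR's quasi-likelihood fit, red where FDR was under 0.05. P2rx7, Aim2 and Casp4 lay above 0 with their whole intervals, while Nlrp6, Gsdmd and Nlrc4 had intervals that span 0.

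Likeness to Casp1 was taken as the Euclidean distance between log2 profiles over the 4 libraries, each centred on its own mean, among the 112 pathway genes tested. Ccl28 was nearest at 0.15, then Casp4 at 0.17 and Birc3, an inhibitor of apoptosis, at 0.20. Birc3 itself was at a log2 fold change of 0.43 (FDR = 0.30). With 4 libraries that differ foremost by age, such distances are a description of these profiles only.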

How the data were processed

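RNA of sorted ISCs was sequenced in 4 libraries, 2 pools of 5 animals per age. Per the paper and the submitters' processing notes, the authors trimmed reads with Trimmomatic 0.30, aligned them to GRCm38 with STAR 2.4.2a, counted reads in exons of GENCODE vM15 genes with featureCounts, and deposited raw counts per gene, neither normalized nor filtered. Amplification (SPIA) added no molecular identifiers, so copies of 1 molecule count more than once. Groups and replicate numbers come from sample titles.

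Tests covered the 13692 of 52459 genes that exceeded 5 reads and 1 CPM in any library, with TMM and edgeR 4.0.16 (glmQLFit and glmQLFTest, R 4.3.3), no covariate, and Benjamini-Hochberg adjustment over all genes tested, at FDR 0.05. Standard errors come from the log2 fold change and F. Normalized CPM are counts over TMM-scaled library sizes. Replicate pools differed by more than sampling noise (chi-square per gene 9.42 over 15267 genes in ISC_2mth and 7.11 over 14490 in ISC_22mth). The labels do not say which animals made which pool beyond their number. Alternatives used limma 3.58.1, DESeq2 1.42.0 and other scalings, filters and samples. The offsets used lowess (span 0.3, 3 iterations) on GC content of the longest transcript and on exonic length, known for 96.7% of the genes tested.

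Positions, lengths, exon overlaps and 50-base stretches come from GENCODE vM21 (GRCm38), matched by symbol, as vM15 was not used here. Promoter windows are RefSeq's. The fit was also run on simulated counts, whose outcome is not reported here. Members and lists were chosen with earlier results of these data known. Named were all members, each list gene with FDR under 0.05, the 2 of lowest p in each direction per list, Rel and the partners of Casp1 and Il18, and the 3 genes nearest to Casp1. Some genes that this rule names are not reported here. Distances used log2 of normalized CPM plus 0.5.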

Additional observations from a re-analysis of the deposited data

How the results depend on the processing

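Calls were 309 genes, 223 higher and 86 lower in old ISCs, with 1 member and 5 other pathway genes among them. The likelihood ratio test called 611 (375 higher, 236 lower; 8 pathway genes), DESeq2 197 (147, 50; 2), no filter 554 (357, 197), GC and length offsets 192 (141, 51; 0 members and 2 pathway genes) and total counts 4650 (96, 4554; 2 members and 38 pathway genes). Leaving out each pool in turn gave between 147 and 691 genes (122 to 464 higher, 25 to 248 lower), 0 to 2 members and 2 to 9 pathway genes, with the lone pool of an age assumed to vary like the other age. With total counts the log2 fold change was -0.68 for Nfkb1 and -0.51 for Nfkbiz, both then called, -0.16 for Rela and -0.33 for Tnfaip3, both then below 0, and 0.12 for Casp1, no longer called. Offsets gave 0.39 for Casp1. Over the fits without a pool, values ran from 0.49 to 0.73 for Casp1, 0.12 to 0.88 for Nfkbia, -0.11 to 0.67 for Rela, -0.74 to 0.27 for Relb, -0.045 to 0.0025 for Nfkbiz and -0.086 to 0.37 for Tnfaip3. Total counts, which lower every gene, put below 0 the values of the uncalled pathway genes Rel (-0.35), Nfkbid (-0.26), Irak1 (-0.11), Traf6 (-0.16), Tax1bp1 (-0.21), Adam17 (-0.43), Adam10 (-0.47), Pycard (-0.16), Nlrc4 (-0.47), Naip5 (-0.43), Il18bp (-0.30) and Birc3 (-0.055). Relative to the median of all genes under that scaling, all 12 kept their direction, from 0.026 for Nlrc4 and Adam10 to 0.44 for Birc3. Adam10 and Nlrc4, both near 0, also turned with upper-quartile scaling (-0.025 and -0.020), with at least 10 counts in every library (-0.0059 and -0.0002) and with offsets (-0.096 and -0.037). Without a pool, ranges that include a reversal were -0.074 to 0.38 for Rel, -0.037 to 0.54 for Nfkbid, -0.38 to 0.029 for Nlrp6, -0.16 to 0.25 for Adam17, -0.096 to 0.13 for Adam10, -0.14 to 0.17 for Nlrc4, -0.024 to 0.14 for Naip5, -0.23 to 0.035 for Gsdmd and -0.077 to 0.50 for Il18bp. Relative to the median of all genes, total counts gave 0.33 for Rela, 0.16 for Tnfaip3, -0.19 for Nfkb1 and -0.02 for Nfkbiz. P2rx7, Nlrc5, Pdlim2 and Nlrp9b have no value under filters that removed them. Apart from total counts, which shifts all genes by construction, the cause of these moves was not tested. Nfkb2 and Il18 kept their direction and missed the threshold in all 17 alternatives.

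Replicate numbers are shared between ages, but same-numbered pools hold different animals, and the correlation of their deviations from the age means was -0.00015 across genes. With the replicate number as a block, 623 genes were called (407 higher, 216 lower), 8 of them pathway genes, and the calls of the members did not change. At 9 to 14 counts per library the depth limits Cxcl16, and at 12 to 32 counts Il18.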
